A study of Solanum lycopersicum with 17 samples.

Results

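TAG1, TAGL1, TAGL11 and MBP3 are the C and D genes of the AGAMOUS clade of tomato (Solanum lycopersicum), a small group of MADS-box transcription factor genes. They were taken from the deposited tables by their gene model identifiers, Solyc02g071730 for TAG1, Solyc07g055920 for TAGL1, Solyc11g028020 for TAGL11 and Solyc06g064840 for MBP3, and are 4 of 34727 gene models. In RefSeq the genes with these symbols lie on chromosomes 2, 7, 11 and 6, and the identifiers place all 4 on the same chromosomes. Their levels were read in 17 RNA-seq libraries of floral buds. The sterile buds came from line ms1035, labelled male sterile, at stages 1, 2 and 3, with 3 libraries at each stage. The fertile buds came from line T-1082, labelled male fertile, with 2 libraries at stage 1 (numbered 2 and 3) and 3 libraries at each of stages 2 and 3. The labels number the stages without defining them by bud length or day, and how the genetic backgrounds of the lines are related is not given in the sources used here.

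In the ABC model of the flower, C genes specify stamens together with B genes and carpels without them, and they end the activity of the floral meristem. E genes of the SEPALLATA type supply the partner proteins of these complexes, and D genes act in ovules and seeds. In tomato, TAG1 is known for stamen and carpel identity, TAGL1 for the fleshy fruit wall and for ripening, and TAGL11 and MBP3 as the ovule and seed genes of the D lineage. A whole floral bud contains all of these organs, and in such bulk samples fewer cells of a type and less RNA per cell cannot be told apart.

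The libraries held 499608 to 817548 reads assigned to genes, with a median of 616592, of which 98.7% to 99.5% were assigned uniquely. Every read counted for the 4 genes was unique, so no read was shared between these related sequences. Of 6 tapetum markers of the stamen, the nurse tissue of pollen, the 9 sterile libraries held 26 reads in all and the 8 fertile libraries 22046. Their summed level was 0 to 10.2 CPM (counts scaled to the library total of assigned reads) in sterile libraries and 749 to 12293 CPM in fertile libraries. At stage 1 of the sterile line 4 of the 6 markers had no read (Solyc01g009590, Solyc02g079810, Solyc03g113530 and Solyc08g062780), 1 had none at stage 2 (Solyc01g009590) and 2 had none at stage 3 (Solyc02g079810 and Solyc03g113530). At stage 3 of the fertile line 1 marker (Solyc02g079810) had no read. Libraries numbered 3 deviated together from their group means, with residual correlations of 0.333 to 0.704 over 9 pairs of such libraries. The range was -0.110 to 0.562 over 9 pairs numbered 2 and 0.0295 to 0.553 over 6 pairs numbered 1. Where a call of a gene named below was lost without the libraries numbered 3, this is said beside it.

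The 4 genes differed widely in level. On the RPKM scale, which divides reads by coding length and library total, TAG1 spanned 203 to 1077, TAGL1 33.9 to 107, MBP3 6.33 to 63.1 and TAGL11 0 to 14.8 over the 17 libraries. TAG1 was above TAGL1 in all 17 libraries, by a median ratio of 6.21. TAGL1 was above MBP3 in 16 of 17 libraries and MBP3 above TAGL11 in 15 of 17, so only the step from TAG1 to TAGL1 had no exception. The total over the libraries was 4104 reads for TAG1, 554 for TAGL1, 151 for MBP3 and 46 for TAGL11. The low totals of MBP3 and TAGL11 limited how small a difference these genes could show.

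TAG1, the main stamen and carpel identity gene of the group, was lower in sterile than in fertile buds. At stage 1 the sterile libraries held 152, 159.9 and 180.0 CPM and the fertile libraries 189 and 262 CPM. At stage 2 the values were 236, 262 and 308 CPM in sterile libraries, against 501, 805 and 462 CPM in fertile libraries. At stage 3 they were 363, 289 and 243 CPM in sterile libraries, against 676 (529 reads), 496 and 590.4 CPM in fertile libraries. The lines did not overlap at any stage, and the highest sterile library of each stage lay below the lowest fertile one.

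Averaged over the 3 stages, the log2 difference of TAG1 between sterile and fertile buds was -0.89 (SE 0.16, 95% interval -1.22 to -0.56), a level 1.85-fold lower in sterile buds. This difference passed over all genes tested (edgeR quasi-likelihood, adjusted p = 0.00154). TAG1 was the only 1 of the 3 genes tested that did so, and 9.74% of all 13568 genes tested passed in this comparison (6.25% as lower in sterile buds). The TAG1 call held under 25 of 25 alternative settings, with adjusted p up to 0.0155 when the libraries numbered 3 were left out of both lines.

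By stage, TAG1 averaged 164 ± 14.5 CPM (SD, n = 3) in sterile and 226 ± 51.3 CPM (SD, n = 2) in fertile buds at stage 1, and the log2 difference was -0.51 (SE 0.29, edgeR adjusted p = 0.641). No AGAMOUS-clade gene was called at stage 1 by edgeR or by DESeq2, and none had an unadjusted p under 0.05. Of all genes tested, 1.16% were called by edgeR and 10.1% had an unadjusted p under 0.05. The stage 1 libraries of TAG1 did not overlap, and 12.4% of all genes tested were likewise lower in every sterile library there.

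At stage 2 the log2 difference of TAG1 was -1.15 (95% interval -1.70 to -0.59), which passed (edgeR adjusted p = 0.0239). TAG1 was the 1 gene called of the 3 tested, where 2.83% of all genes were called (2.23% as lower) and 8.65% were lower in every sterile library without overlap. This call did not hold without sterile replicate 1, sterile replicate 2 or fertile replicate 2, nor when only the 6 libraries of that stage were fitted, and its adjusted p over 15 alternatives reached 0.139. At stage 3 the log2 difference was -1.01 (SE 0.26), with edgeR adjusted p = 0.0999 and, by DESeq2, adjusted p = 0.00978. No gene of the clade was called by edgeR at stage 3 and 1 (TAG1) was called by DESeq2 and at an unadjusted p under 0.05, while 0.737% of all genes were called by edgeR, 10.8% had such an unadjusted p and 7.65% were lower without overlap. DESeq2 called 0.665% of 23455 genes with reads at that stage.

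The stage differences of TAG1 were not told apart from each other. An F-test for a line difference that depends on stage gave 1.36 for TAG1 (unadjusted p = 0.282, edgeR adjusted p = 1). In that test edgeR called 0 of 3 clade genes and 0% of all genes, no clade gene and 365 of all genes (2.69%) had an unadjusted p under 0.05, and DESeq2 called 9 genes, none of the clade.

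**Figure D1:**
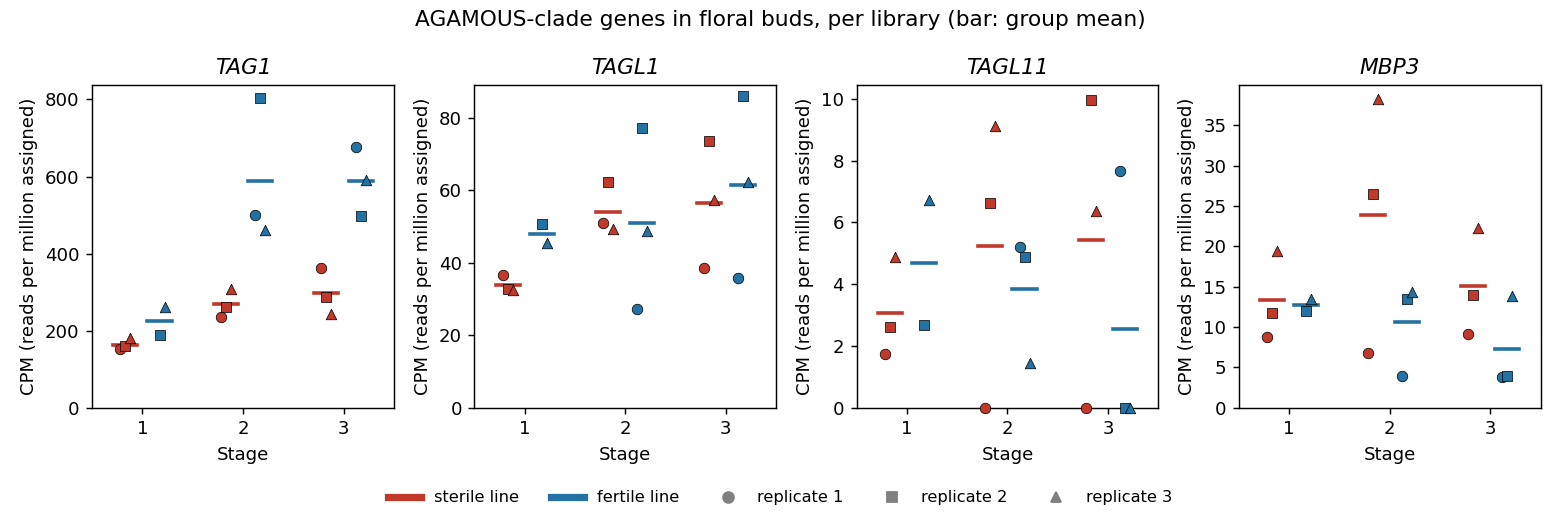
CPM of TAG1, TAGL1, TAGL11 and MBP3 (y axis, separate scale for each gene) in every library at stages 1 to 3 (x axis), with sterile libraries in red and fertile libraries in blue. Symbols give the replicate number and horizontal bars the group mean. TAG1 shows sterile libraries below all fertile ones at each stage, while TAGL1, TAGL11 and MBP3 overlap between the lines at 2 or more of the 3 stages.

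TAGL1, the close paralog of TAG1, showed no called line difference. At stage 1 it held 36.7, 32.8 and 32.4 CPM in sterile libraries, against 50.7 and 45.3 CPM in fertile libraries. At stage 2 the sterile libraries held 50.9, 62.2 and 49.2 CPM, against 27.2, 77.1 and 48.8 CPM in fertile libraries. At stage 3 the sterile libraries held 38.5, 73.6 and 57.2 CPM, against 35.8, 86.1 and 62.3 CPM in fertile libraries. The lines were apart at stage 1, where the fertile pair was higher, as for 12.4% of all genes tested, and overlapped at stages 2 and 3.

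The log2 difference of TAGL1 was -0.55 at stage 1, 0.05 at stage 2 and -0.13 at stage 3. Averaged over the stages it was -0.21 (SE 0.21, 95% interval -0.65 to 0.23, edgeR adjusted p = 0.584), so an average reduction larger than 0.65 on the log2 scale lay outside the interval. No alternative setting gave a call for TAGL1 in any of the comparisons.

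MBP3, of the D lineage, was read at low counts in every library. Sterile libraries held 5, 9 and 12 reads at stage 1 (8.73, 11.8 and 19.5 CPM), 4, 20 and 21 at stage 2 (6.79, 26.5 and 38.3 CPM) and 5, 7 and 14 at stage 3 (9.17, 13.9 and 22.3 CPM). Fertile libraries held 9 and 8 reads at stage 1 (11.998 and 13.4 CPM), 3, 11 and 10 at stage 2 (3.89, 13.5 and 14.4 CPM) and 3, 2 and 8 at stage 3 (3.84, 4.003 and 13.9 CPM). The lines overlapped at every stage, and within each sterile stage the library numbered 1 was the lowest of the 3.

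The log2 difference of MBP3 was 0.02 at stage 1, 1.14 at stage 2 (95% interval -0.14 to 2.43) and 1.07 at stage 3 (-0.42 to 2.56). Averaged over the stages it was 0.74 (SE 0.39, 95% interval -0.08 to 1.57, edgeR adjusted p = 0.272). Leaving out single libraries moved the stage 2 value to 0.57 (without sterile replicate 3), 0.75 (without fertile replicate 1) and up to 1.59 (without sterile replicate 1). The stage 3 value moved to 0.59 (without sterile replicate 3), 0.70 (without fertile replicate 1) and 1.90 (without fertile replicate 3), and the stage 1 value ranged from -0.35 to 0.34 over the alternatives. MBP3 passed the filter on low counts (16.2 CPM in enough libraries) through 4 sterile libraries and no fertile one, so it entered the test through the group in which it was higher.

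TAGL11, the other D gene, was near the limit of detection. Sterile libraries held 1, 2 and 3 reads at stage 1, 0, 5 and 5 at stage 2 and 0, 5 and 4 at stage 3. Fertile libraries held 2 and 4 reads at stage 1, 4, 4 and 1 at stage 2 and 6, 0 and 0 at stage 3. The sum was 25 reads in the sterile and 21 in the fertile line, the ranges overlapped at each stage, and 4 of 17 libraries had no read. A library without a read allows up to 3 reads, which is 3.67 to 6.005 CPM at these depths, a limit that covers counting error only.

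TAGL11 failed the filter on low counts. Without the filter its average log2 difference was 0.18 (SE 0.61, 95% interval -1.05 to 1.40, edgeR adjusted p = 1), so a difference of up to about the size seen for TAG1, in either direction, was not detectable at this depth.

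**Figure D2:**
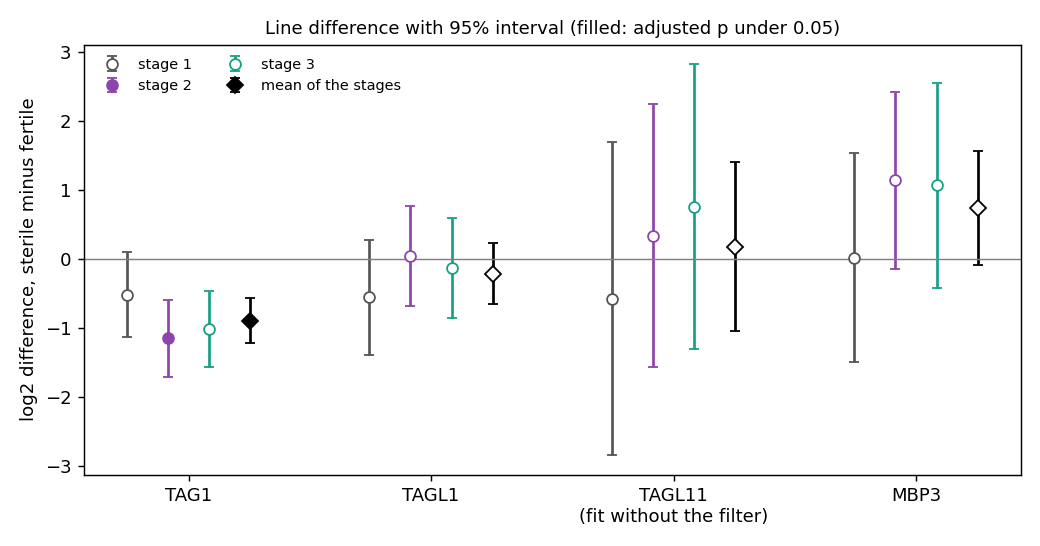
Log2 difference of sterile minus fertile buds (y axis) for the 4 genes (x axis) at stages 1, 2 and 3 and averaged over the stages, with 95% intervals from edgeR. Filled symbols have an adjusted p under 0.05, which is the case for TAG1 at stage 2 (-1.15) and averaged over the stages (-0.89). TAGL11 comes from the fit without the filter on low counts.

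Across stages, TAG1 was higher in later buds of the fertile line. Its level in fertile buds was 226 ± 51.3 CPM (SD, n = 2), 589 ± 188 CPM (n = 3) and 588 ± 90.1 CPM (n = 3) at stages 1, 2 and 3. In fertile buds TAG1 rose at stage 3 against stage 1 by 1.49 on the log2 scale (SE 0.31, 95% interval 0.85 to 2.14, edgeR adjusted p = 0.0101), and all 3 stage 3 libraries lay above both stage 1 libraries. TAG1 was the 1 clade gene called of 3 tested, where 6.31% of all genes were called (3.45% as higher) and 14.5% were higher in every stage 3 library. The call did not hold without either of the 2 stage 1 libraries, or without the libraries numbered 3, and adjusted p reached 0.117.

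The fertile difference at stage 2 against stage 1 was of like size, 1.45 (SE 0.31), but missed the threshold (edgeR adjusted p = 0.0799). There edgeR called 0 of 3 clade genes and 0.155% of all genes, and TAG1 had an unadjusted p under 0.05 as did 9.3% of all genes. DESeq2 called TAG1 there, and 0.315% of 23455 genes with reads. Between stages 3 and 2 of the fertile line TAG1 differed by 0.04 (95% interval -0.50 to 0.58, edgeR adjusted p = 0.990), none of the 3 clade genes was called by edgeR or DESeq2 or had an unadjusted p under 0.05, while 0.236% of all genes were called by edgeR and 8.62% had such an unadjusted p.

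In sterile buds TAG1 stood at 164 ± 14.5, 269 ± 36.5 and 298 ± 60.6 CPM (SD, n = 3 each) at stages 1, 2 and 3. All 3 stage 3 libraries lay above the 3 stage 1 libraries, and the log2 difference was 1.00 (SE 0.27, 95% interval 0.43 to 1.56, edgeR adjusted p = 0.0607). In this comparison edgeR called 0 of 3 clade genes and 2.06% of all genes, and TAG1 and TAGL1 had an unadjusted p under 0.05 as did 16.9% of all genes. DESeq2 called TAG1 here, and 1.82% of 23455 genes with reads. Without overlap, 7.3% of all genes were higher in every stage 3 library. The difference at stage 2 against stage 1 was 0.82 (edgeR adjusted p = 0.495) and at stage 3 against stage 2 it was 0.18 (edgeR adjusted p = 1).

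In both of these sterile comparisons edgeR called 0 of 13568 genes (0%). At stage 2 against stage 1, 6.83% of all genes had an unadjusted p under 0.05 (927 genes, TAG1 and TAGL1 among them) and DESeq2 called 34 genes. At stage 3 against stage 2, 5.76% had such a p (782 genes, none of the clade) and DESeq2 called 4. DESeq2 called no clade gene in either. The stage and line comparisons share libraries, so their values are not independent of each other. Ordered by mean level, the groups of TAG1 were fertile stage 2, fertile stage 3, sterile stage 3, sterile stage 2, fertile stage 1 and sterile stage 1. Neighbours in that order overlapped except between fertile stage 3 and sterile stage 3 and between fertile stage 1 and sterile stage 1.

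No other clade gene was called between stages in either line. TAGL1 stood at 33.96 ± 2.36, 54.1 ± 7.06 and 56.5 ± 17.6 CPM in sterile buds (n = 3 each) at stages 1, 2 and 3. In fertile buds it stood at 48.0 ± 3.78 (n = 2), 51.0 ± 24.98 (n = 3) and 61.4 ± 25.1 CPM (n = 3). Its log2 difference at stage 3 against stage 1 was 0.86 in sterile buds (SE 0.36, edgeR adjusted p = 0.224) and 0.44 in fertile buds (SE 0.39, edgeR adjusted p = 0.584). For MBP3 the same difference was 0.34 in sterile buds (SE 0.64, edgeR adjusted p = 0.852) and -0.71 in fertile buds (SE 0.78, edgeR adjusted p = 0.674).

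Ratios within a library do not depend on its scaling factor, so the balance among the genes was compared on reads per coding kilobase. TAG1 is the largest part of the clade's total. A lower TAG1 alone therefore raises the share of the D genes and lowers the TAG1 share of the C pair. These 2 shares are thus not independent of the TAG1 difference above and do not show by themselves that a D gene or TAGL1 changed. The D genes TAGL11 and MBP3 together made up 6.39%, 8.40% and 12.3% of the clade's total in sterile libraries at stage 1, 2.87%, 11.1% and 13.9% at stage 2 and 2.76%, 7.33% and 10.4% at stage 3. In fertile libraries they made up 6.99% and 7.32% at stage 1, 1.97%, 2.45% and 3.66% at stage 2 and 1.83%, 0.849% and 2.57% at stage 3. The lines overlapped at stages 1 and 2, and at stage 3 every sterile library was above every fertile one.

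Averaged over the stages, the D share was 4.52 percentage points higher in sterile than in fertile buds. An exact two-sided permutation of the line labels within stages (4000 relabellings) gave p = 0.0135, and adjusted p = 0.054 over the 4 ratios compared, which missed the threshold. The sterile excess was 2.61 points without the sterile libraries numbered 3 (exact permutation p = 0.0367, adjusted p = 0.0933). By the same test the adjusted p was 0.01, 0.012 and 0.022 without sterile replicate 1 of stage 1, 2 or 3, and 0.0438 without fertile replicate 2 of stage 1.

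TAG1 made up 81.7% to 85.7%, 81.9% to 87.1% and 80.8% to 91.0% of the C pair (TAG1 plus TAGL1) in sterile libraries at stages 1, 2 and 3. In fertile libraries it made up 80.1% to 86.1%, 91.1% to 95.2% and 86.1% to 95.3%. The lines were apart at stage 2 and overlapped at stages 1 and 3. The average difference was -4.71 percentage points in sterile against fertile buds (exact permutation p = 0.032, adjusted p = 0.064), and by stage it was 0.67, -8.59 and -6.19 points. It passed without fertile replicate 2 of stage 1 (exact permutation, adjusted p = 0.03) and without sterile replicate 1 of stage 3 (exact permutation, adjusted p = 0.028).

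The share of MBP3 in the D pair rested on few reads, at 60.8% to 100% in sterile and 35.7% to 100% in fertile libraries, and its difference of 8.60 points was smaller than the spread of 21.2 points between replicates (exact permutation p = 0.366, adjusted p = 0.489). The log2 ratio of the C pair to the 4 B genes ranged from -2.33 to -1.18 in sterile libraries and from -2.47 to -1.55 in fertile libraries. Its average difference was 0.08 against a spread of 0.38 between replicates (exact permutation p = 0.639).

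**Figure D3:**
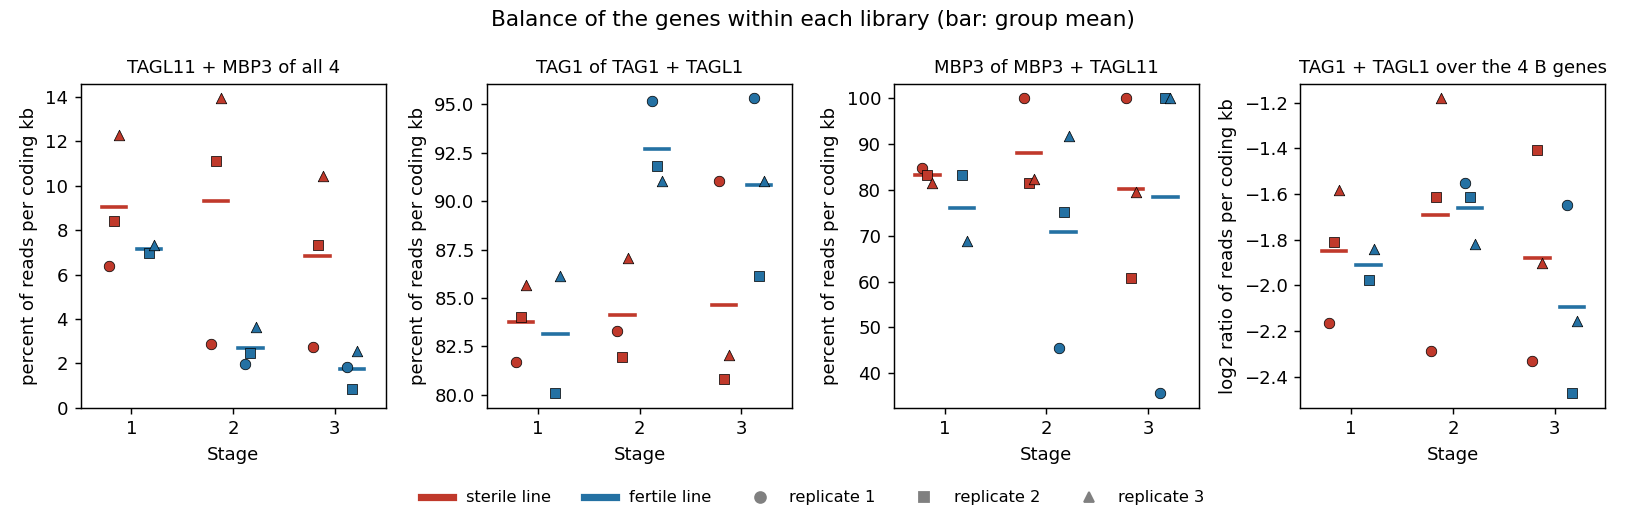
Within-library balance of the genes on reads per coding kilobase at stages 1 to 3 (x axes), with sterile libraries in red, fertile libraries in blue and horizontal bars for group means. From left to right the y axes give the D share of the clade, the TAG1 share of the C pair and the MBP3 share of the D pair in percent, and the log2 ratio of the C pair to the 4 B genes. At stage 3 the D share lies at 2.76% or above in sterile libraries and at 2.57% or below in fertile libraries.

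Other genes of the floral pathway were read for comparison. Of 4 genes listed as B genes, which act with C genes in stamens, 2 of 4 tested were called lower in sterile buds averaged over the stages and none was called higher. Of all genes tested, 9.74% were called in this comparison, 6.25% as lower. TAP3, a DEFICIENS-type petal and stamen gene, spanned 76.0 to 484 CPM in sterile libraries, with a median of 168, and 169 to 761 CPM in fertile libraries, with a median of 443. Its log2 difference was -1.02 (SE 0.23, edgeR adjusted p = 0.00994), and this call did not hold without the libraries numbered 3 (adjusted p = 0.204). Solyc08g067230, which is given by identifier because no annotation used here pairs it with a name, differed by -0.999 (SE 0.17, edgeR adjusted p = 0.00105) and passed under 25 of 25 alternatives. The median of the B list was -0.84, against 0.02 over all genes tested.

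Of 6 listed E genes, 2 of 5 tested were called lower in sterile buds averaged over the stages, as were 6.25% of all genes tested. None was called higher, and the list median was -0.21. TM29, a SEPALLATA-type gene, spanned 192 to 437 CPM in sterile libraries, with a median of 307, and 252 to 764 CPM in fertile libraries, with a median of 523. Its log2 difference was -0.64 (SE 0.15, edgeR adjusted p = 0.013), and TM5, of the same type, differed by -0.62 (SE 0.14, edgeR adjusted p = 0.01). Without the libraries numbered 3 neither passed, at adjusted p = 0.0836 for TM29 and 0.0539 for TM5, and TM29 also missed the threshold without fertile replicate 3 of stage 1.

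Of 6 listed A, FRUITFULL and AGL6 genes, 0 of 5 tested were called by edgeR averaged over the stages, none was called by DESeq2 and 3 had an unadjusted p under 0.05, as did 23.3% of all genes tested. Of these 3, 1 passed the filter on low counts through 3 fertile and 0 sterile libraries. The list median was -0.47, with a negative log2 difference for 5 of 5 tested. The 2 with the highest mean RPKM were Solyc05g056620, whose listed name did not match its position in RefSeq, at a log2 difference of -0.07 (SE 0.15), and AGL6, a repressor of fruit set without fertilisation, at -0.10 (SE 0.19). Of 5 listed upstream and meristem genes, 0 of 3 tested were called by edgeR or DESeq2 and 2 had an unadjusted p under 0.05. The median of this list was -1.05, with a negative log2 difference for 3 of 3 tested. Of these 3, Solyc02g087970 had no read at stage 1 of either line or at stage 2 of the sterile line. Its averaged difference could therefore not be estimated (SE 3809 in the fit without the filter), and its sign is not informative. WUS, the stem cell gene that AGAMOUS switches off in Arabidopsis flowers, averaged 7.59 ± 2.37, 14.2 ± 5.70 and 15.0 ± 7.80 CPM in sterile buds (n = 3 each) at stages 1, 2 and 3. In fertile buds it averaged 13.7 ± 4.33 (n = 2), 36.2 ± 33.7 (n = 3) and 28.2 ± 9.60 CPM (n = 3), and the average log2 difference was -1.05 (SE 0.38, edgeR adjusted p = 0.096).

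Of 3 listed carpel and ovule YABBY genes, only CRCb had enough reads to be tested. Over the 3 stages CRCb, a CRABS CLAW-type carpel gene, differed by 0.20 (SE 0.33, edgeR adjusted p = 0.783) between sterile and fertile buds, and it was called neither by edgeR, nor by DESeq2, nor at an unadjusted p under 0.05. CRCa, of the same type, held 22, 8 and 0 reads in sterile and 15, 2 and 1 reads in fertile buds at stages 1, 2 and 3. INO, a gene of the outer ovule integument in Arabidopsis, held 9 reads in all.

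The tapetum markers were also lower in sterile buds, at a summed level of 0 to 10.2 CPM in sterile libraries and 749 to 12293 CPM in fertile libraries. Their difference was already present at stage 1, at 0 to 4.87 CPM in sterile and 1549 to 3483 CPM in fertile libraries. All 6 passed the filter on low counts through fertile libraries only, so no count of calls is given for them. The part of stamen tissue in the difference of TAG1 and of the B and E genes was not tested. At stage 2 Solyc08g067230 (-1.25, edgeR adjusted p = 0.0216) was the 1 gene called among the B, E, A, upstream and YABBY lists, and DESeq2 called TM5 and TM29 beside it. Of all genes, edgeR called 2.83% and DESeq2 1.95% at that stage. The call of Solyc08g067230 did not hold under 7 of 15 alternatives, with adjusted p up to 0.120. It was lost when the sterile or all libraries numbered 3, any 1 sterile stage 2 library, or fertile replicate 2 were left out, and when only the groups compared were fitted. At stage 1 no gene of these lists was called by edgeR or DESeq2, which called 1.16% and 0.84% of all genes. There 1, of the A, FRUITFULL and AGL6 list, had an unadjusted p under 0.05, as did 10.1% of all genes tested. That gene passed the filter on low counts through 3 fertile and 0 sterile libraries, the line in which it was higher. At stage 3 none was called by edgeR and 6 had an unadjusted p under 0.05, as did 10.8% of all genes tested. DESeq2 called Solyc08g067230, TM5 and TM29 there, and 0.665% of all genes with reads.

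**Figure D4:**
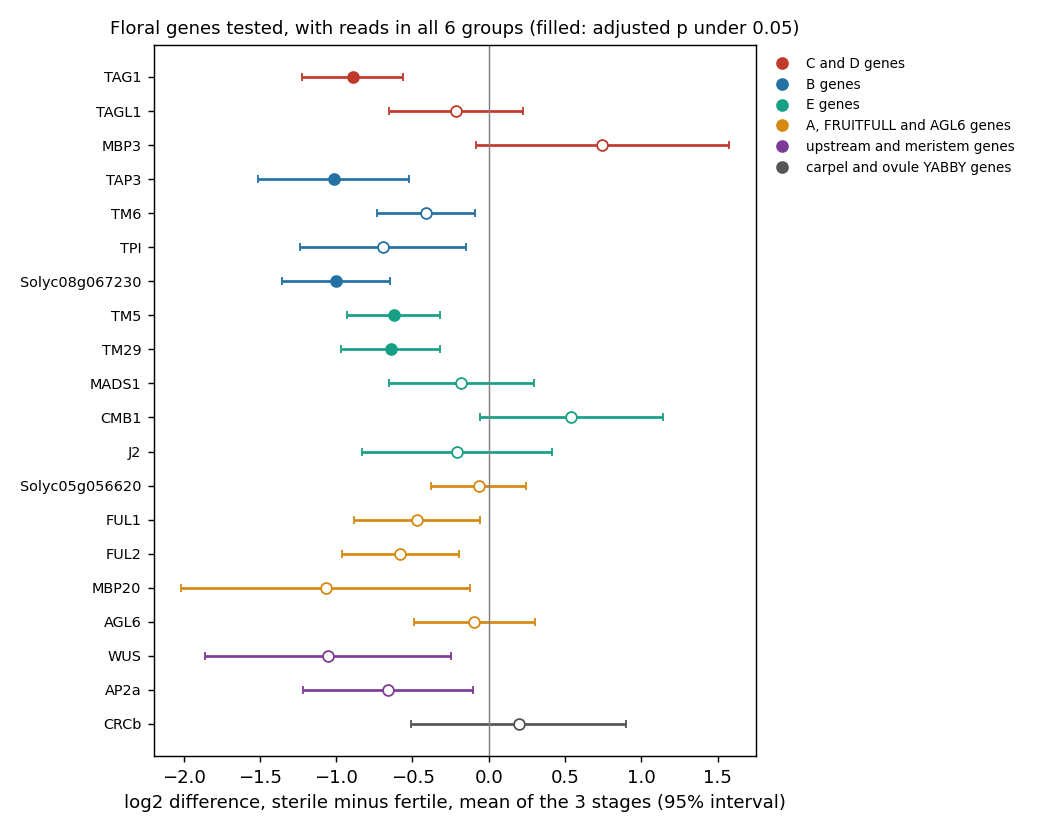
Log2 difference of sterile minus fertile buds averaged over the 3 stages (x axis, with 95% intervals from edgeR) for the tested genes of the clade and of the listed floral pathway that had reads in all 6 groups (y axis). Filled symbols have an adjusted p under 0.05. TAG1 at -0.89 lies between the called B genes (-1.02 and -0.999) and E genes (-0.64 and -0.62), and MBP3, CMB1 and CRCb lie to the right of 0 with intervals that include it.

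Between stage 3 and stage 1 of the fertile line, genes of the B and E lists were called higher beside TAG1: 2 of 4 tested B genes and 2 of 5 tested E genes. Of all genes tested, 6.31% were called in this comparison, 3.45% as higher. The log2 differences were 1.84 for TAP3 (edgeR adjusted p = 0.026), 1.77 for Solyc08g067230 (edgeR adjusted p = 0.00631), 1.37 for TM29 (edgeR adjusted p = 0.0142) and 1.06 for TM5 (edgeR adjusted p = 0.0316). These calls did not hold without the libraries numbered 3 or without either fertile library of stage 1 (replicates 2 and 3). Their edgeR adjusted p reached 0.203, 0.139, 0.160 and 0.209 for these 4 genes. The calls of TAP3 and TM5 were also lost without fertile replicate 2 or 3 of stage 3, and that of TM29 without fertile replicate 3 of stage 3. TM5 was not called when only the groups compared were fitted. The summed level of the 6 tapetum markers was 749 to 4526 CPM at stage 3 and 1549 to 3483 CPM at stage 1 of the fertile line. These sums do not show the single markers, since Solyc07g053460 held 13858 of the 22046 marker reads of the fertile line. By gene, the log2 difference between these stages was positive for 1 marker, Solyc07g053460, and negative for 5, with a median of -4.44. The part of stamen tissue in these differences was not tested. In sterile buds Solyc08g067230 alone was called among these lists, at 1.19 (edgeR adjusted p = 0.0391), and that call did not hold under 10 of 15 alternatives, the libraries numbered 3 left out being among them. Of all genes tested, 2.06% were called between these sterile stages.

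The genes most like each member were named by Pearson's correlation of log2 CPM over the 17 libraries among 9697 genes, as a description of libraries that share line, stage and sequencing depth. For TAG1 these were TM29 (r = 0.942) and Solyc01g005560 (r = 0.941). TM5 ranked 6 and Solyc08g067230 ranked 7, at r of 0.930 and 0.924. Other genes of the B list ranked 48, 144 and 310, at r of 0.851, 0.805 and 0.751. Other genes of the E list ranked 2733 and 8679, at r of 0.292 and -0.543, so the lists were not alike as a whole. Solyc01g005560 averaged 85.5 ± 10.8, 114 ± 16.7 and 162 ± 36.0 CPM in sterile buds (n = 3 each) and 109.9 ± 17.8 (n = 2), 212 ± 11.6 (n = 3) and 266 ± 25.2 CPM (n = 3) in fertile buds at stages 1, 2 and 3. Its sterile mean was below its fertile mean at each stage.

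The correlations were weaker for the other genes. For TAGL1 the closest were Solyc02g062810 (r = 0.797) and Solyc01g098590 (r = 0.793), and TM29 reached 0.523. For MBP3 they were Solyc12g008910 (r = 0.881) and Solyc11g072510 (r = 0.832). TAGL11 had too few reads to be ranked.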

How the data were processed

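The deposited tables give, per the file headers, counts of all and of uniquely assigned reads for 34727 gene models, and RPKM values that equal the count divided by gene length and library total (0 values differ beyond a relative tolerance of 1e-06). Gene lengths in the deposited tables are bases, of which 34726 divide by 3 (coding lengths). Aligner, counter, strandedness and genome build: not given in the sources used here. No sample of another series was present (0 columns).

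The test used total assigned counts and edgeR 4.0.16 (R 4.3.3), with filterByExpr over the 6 groups (13568 genes, at least 97.0% of reads kept), TMM factors of 0.901 to 1.09, and 1 quasi-likelihood fit of 17 libraries with 11 residual degrees of freedom (common dispersion 0.0844). A call means an adjusted p (Benjamini-Hochberg, over all genes tested) under 0.05. SE is the size of the log2 difference over the square root of F. CPM divides by all assigned reads. The test was checked on simulated counts. Permutations ran in Python 3.11.15 and were adjusted over 4 ratios. All p-values reflect only how these samples vary, since the labels do not say whether replicates came from separate plants.

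Members and lists were chosen with earlier results of these data known. Named genes are the 4 members, up to 4 called genes of each list by adjusted p (otherwise the 2 with the highest mean RPKM), and the 2 genes most correlated with each member tested (mean of at least 20 CPM, prior count 2). Tapetum marker names are those of an earlier analysis. Of 35 genes, 27 had a RefSeq symbol (assembly SLM_r2.1, another build) and 26 matched by chromosome and relative gene order within 10 percentage points. Genes without a match are given by identifier.

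Same-numbered libraries were taken to pair samples where at least 3 pairs existed and every residual correlation was over 0.1. This held between stages 3 and 2 only, at 0.553 to 0.670 in sterile and 0.329 to 0.538 in fertile buds, as found from the data and not stated in the labels. The main values given for stage 3 against stage 2 do not use this pairing. With the replicate block, edgeR called 0.936% of all genes there in fertile and 0% in sterile buds, none of the clade. Fertile stages 2 and 1 had 2 pairs, at 0.237 and 0.390. Alternatives were DESeq2 1.42.0, other scalings, no filter, unique reads, no length division, a replicate block, the compared groups alone, and leaving out libraries.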

Additional observations from a re-analysis of the deposited data

How the results depend on the processing

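Of 541 values of single clade genes under the alternatives, 527 kept their direction and side of the threshold, 7 lost a call, 7 gained one and 0 changed sign while called. Of 182 counts of clade genes called, 168 stayed as reported. At stage 2 between the lines the count was 0 instead of 1 with only the groups compared and 0 to 1 when single libraries were left out. At stage 3 against stage 1 of fertile buds it was 0 without all libraries numbered 3 and 0 to 1 when single libraries were left out. With DESeq2 the count was 1 instead of 0 between the lines at stage 3, at stage 3 against stage 1 of sterile buds and at stage 2 against stage 1 of fertile buds, where no filter on low counts also gave 1. In that order DESeq2 called 0.665%, 1.82% and 0.315% of all genes with reads, and the fit without the filter called 0.669% in the last. The cause was not tested. Of 84 values of the within-library ratios, 77 kept their side of the threshold and 7 passed it: leaving out single libraries moved the D share difference between 3.75 and 5.60 points and the TAG1 share difference between -5.77 and -3.70 points. Without TMM the median of all genes shifted by -0.139 at stage 3 against stage 1 in sterile and -0.117 in fertile buds, with no change of a clade call.

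With the replicate number as a block, 2 clade genes instead of 1 were called averaged over the stages (MBP3 at edgeR adjusted p = 0.0427 beside TAG1; MBP3 passed the filter through 4 sterile and 0 fertile libraries, and without filter and block its adjusted p was 0.248), and 1 instead of 0 at stage 3 against stage 1 of sterile buds and at stage 2 against stage 1 of fertile buds (TAG1). The D share differed by 4.96 points over 8 same-numbered pairs (exact sign-flip permutation, adjusted p = 0.0312). Between the lines residual correlations went down to -0.110, and between stages 3 and 1 of sterile buds to 0.00396, so there the pairing rests on numbers alone. Between stages 2 and 1 of fertile buds they were 0.237 and 0.390, over only 2 pairs. The block changed no other call of a clade gene.

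Depth limits the D genes most. The fit could not separate TAGL11 from a difference of up to 1.40 on the log2 scale, and MBP3 rests on 97 sterile and 54 fertile reads. Fertile stage 1 has 2 libraries.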

Other observations

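Solyc02g087970, listed with the upstream and meristem genes and given by identifier because no annotation used here pairs it with a name, had reads almost entirely at stage 3. Sterile libraries held 13, 2 and 0 reads at stage 3 and 0 at stages 1 and 2. Fertile libraries held 5, 37 and 38 reads at stage 3, against 1 read in all at stage 2 and 0 at stage 1. Its call at stage 3 against stage 1 of fertile buds (edgeR adjusted p = 0.0402) did not hold under 6 of 14 alternatives, the libraries numbered 3 left out being among them. Of all genes tested, 6.31% were called in that comparison. Solyc02g087970 passed the filter on low counts through 1 sterile and 2 fertile libraries, all of stage 3. It thus entered the test through the stage in which it was higher.

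LAT52, a pollen gene of tomato, held 3 reads over the 9 sterile libraries and 20 over the 8 fertile libraries. In fertile buds 4, 11 and 3 of these reads were at stage 3, in replicates 1, 2 and 3. It was not tested, since it failed the filter on low counts.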
